A study of Mus musculus with 32 samples.

Results

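The motile cilium genes of the median eminence, and the genes that carry cargo along cilia, were followed across the cells of a single-cell RNA-seq dataset from mice. The set held every row of the UMI table whose gene symbol begins with Dnah, Dnaic, Dnali, Cfap, Rsph, Tekt, Drc or Ift followed by a number, provided that at least 20 UMIs were counted over all cells. A UMI (unique molecular identifier) marks 1 captured mRNA molecule. Of the 27998 genes in the table, 81 had such a symbol and 74 of these reached 20 UMIs, out of 15325 genes that did so. Of the 74 genes, 14 are Ift genes and 60 belong to the other families. The 60 are called axonemal genes here by symbol alone, whatever the role of each product. Just inside the limit lay Cfap73 with 20 UMIs and Dnah3 and Dnah8 with 35 each. Just outside lay Cfap99 with 19, Dnah17 with 10 and Tekt3 with 9, all 9 of them in ependymocyte-like cells.

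The median eminence, a small region at the base of the hypothalamus, was dissected from C57B/L6 mice aged 40 to 47 days that had either been fasted overnight for 16 h or fasted and then refed for 1 h. Tissue from 5 mice per condition was pooled, dissociated with papain and sorted by flow cytometry, and each suspension gave 2 libraries of 10x 3′ chemistry, so that the libraries of 1 condition share their mice. The deposited table pools all libraries into 5982 cells with 29288898 UMIs and a median of 3837 UMIs per cell. Cells fall under 4 barcode suffixes, called barcode numbers 1 to 4 here, with 1642, 1493, 1359 and 1488 cells and 7806887, 6508038, 7243332 and 7730641 UMIs, and 21 barcodes occurred under 2 of these numbers. No label ties a number to fasted or refed mice, so the table was treated as 1 sample. Fasted and refed cells were not compared, no p-value is given, and the values of the 4 barcode numbers are given beside each main value as the spread available. Intervals are exact 95% intervals that cover counting error only.

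A motile cilium is built on an axoneme, a ring of doublet microtubules around a central pair. Outer and inner dynein arms (Dnah heavy chains with Dnaic and Dnali subunits) drive its bending, radial spokes (Rsph) and nexin-dynein regulatory complexes (Drc) control the arms, tektins (Tekt) lie inside the doublets, and Cfap genes encode further axonemal and cilium-associated proteins. Intraflagellar transport (Ift) trains of complexes A and B carry cargo in motile and in primary cilia, the single sensory cilia of many cell types. Ependymocytes are multiciliated cells that line the ventricles and move cerebrospinal fluid, whereas tanycytes, their neighbours along the floor of the third ventricle, send long processes into the median eminence.

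Cells were clustered without any of the 74 genes, and clusters were named from marker genes that are not among them. Ependymocyte-like cells formed 1 cluster of 201 cells (3.36% of all cells, 2.92–3.85%), with 38, 40, 57 and 66 cells under barcode numbers 1 to 4 and a median of 4861 UMIs per cell. With a finer clustering (Leiden resolution 2) the type held 312 cells in 2 clusters of 201 and 111, and the axonemal difference from tanycyte-like cells given further on was 1.39 log2 units instead of 1.68. All 8 of their 8 markers were enriched, Tmem212 at 2665 UMIs per 1000000 (CPM) against 20.9 CPM in tanycyte-like cells, and Elof1 at 1253 against 279 CPM. Foxj1, the master transcription factor of motile ciliogenesis, was at 353 CPM in ependymocyte-like, 57.4 CPM in tanycyte-like and 2.99 CPM in microglia-like cells. Tanycyte-like cells numbered 1125 in 2 clusters of 596 and 529 cells, with a median of 4152 UMIs. Rax, a tanycyte transcription factor, was at 810 CPM in them and at 18.1 CPM in ependymocyte-like cells. Of the 9 tanycyte markers 5 were enriched in the cluster of 596 cells and 7 in that of 529. Summed, these markers had 2670 CPM in tanycyte-like and 212 CPM in ependymocyte-like cells. In the cluster of 596 cells Scn7a (16.9 CPM) and Adm (0.456 CPM) lay below the ependymocyte-like 76.4 and 24.1 CPM, and the other markers lay above. Slco1c1 was at 7.52 CPM in tanycyte-like and 133 CPM in astrocyte-like cells. Of the markers of other cells that could share the gate, the choroid plexus genes Ttr, Kl, Kcnj13 and Aqp1 were at 0 in ependymocyte-like cells, while Folr1 and Clic6 were at 87.4 and 54.3 CPM. Summed over 9 astrocyte markers, ependymocyte-like cells had 1615 CPM, led by Gja1 at 822 CPM, tanycyte-like cells had 687 CPM, and the part of astrocyte RNA in the values was not tested.

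Summed over the 60 axonemal genes, ependymocyte-like cells held 9759 CPM (9566–9956). The sum under barcode numbers 1 to 4 was 9997, 9858, 9862 and 9479.8 CPM. In tanycyte-like cells the same sum was 3048 CPM (2998–3097), with 3102, 3107, 2869 and 3066 CPM under the 4 numbers. Every ependymocyte-like value lay above every tanycyte-like value, and the fold between the pooled sums was 3.20 (log2 1.68, 1.64–1.72). The sum was far lower in the remaining named types, at 876 CPM in pars tuberalis-like, 798 CPM in neuron-like, 596 CPM in astrocyte-like and 202 CPM (179–228) in microglia-like cells. The neuron-like sum was not spread evenly over the 60 genes. Cfap36, Rsph9 and Cfap20 were the highest of them there, at 151, 131 and 131 CPM. Tanycyte-like cells stood 15.1-fold above microglia-like cells. Ependymocyte-like cells made up 3.40% of all UMIs and held 22.9% (22.5–23.3%) of the axonemal UMIs, 9711 of 42413. Tanycyte-like cells made up 16.4% of all UMIs and held 34.4% of the axonemal ones.

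The 14 Ift genes spread more widely. Their sum was 2113 CPM (2024–2206) in ependymocyte-like cells, with 1994, 2152, 2125 and 2157 CPM under barcode numbers 1 to 4. Tanycyte-like cells held 1218 CPM (1187–1249.6), with 1219, 1229.97, 1179 and 1237 CPM. The groups did not overlap, but the fold was 1.74 (log2 0.80, 0.72–0.87) against 3.20 for the axonemal genes. Pars tuberalis-like cells held 764 CPM of Ift transcripts, neuron-like cells 657 CPM, astrocyte-like cells 577 CPM, mural-like cells 574 CPM and microglia-like cells 202 CPM. Ependymocyte-like cells therefore held 9.85% of all Ift UMIs, 2103 of 21340. In the plot of summed levels by cell type, ependymocyte-like cells, tanycyte-like cells and the unnamed Gfap-led and Fxyd1-led clusters stood highest. Beyond them the axonemal sum fell steeply, and the Ift sum fell less.

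**Figure D1:**
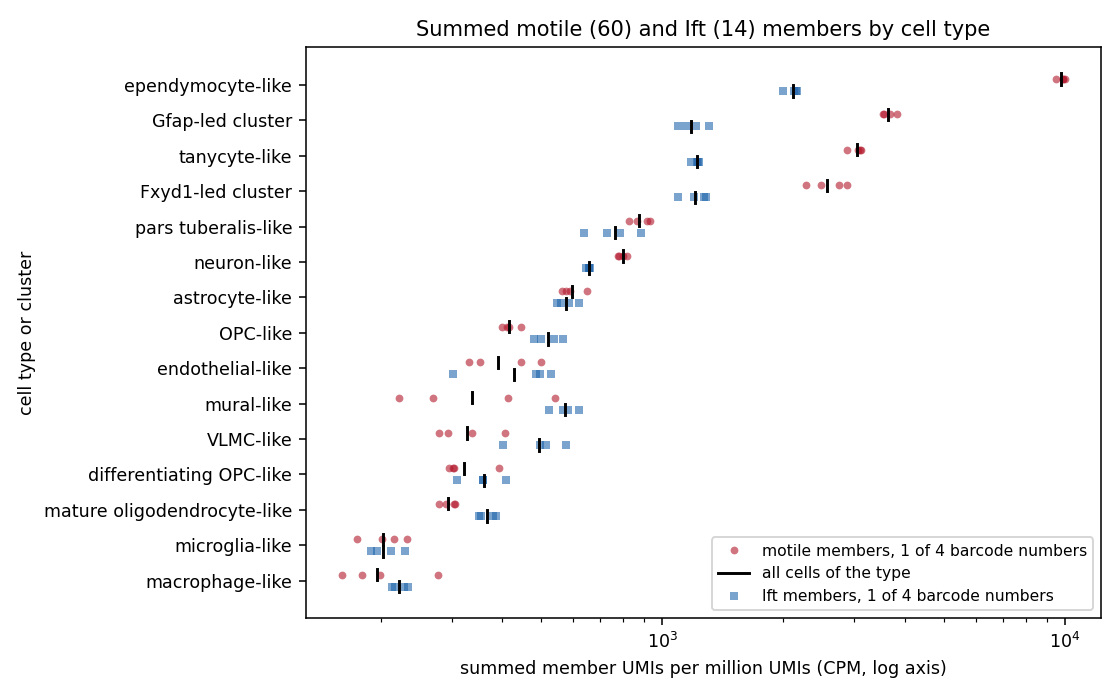
Summed level (CPM, log axis) of the 60 axonemal genes (red circles, motile members) and of the 14 Ift genes (blue squares) in the 13 named cell types and the Gfap-led and Fxyd1-led clusters, with 1 point for each barcode number and a black line for all cells of the type. The axonemal sum over all cells was 9759 CPM in ependymocyte-like, 3048 CPM in tanycyte-like and 202 CPM in microglia-like cells.

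Gene by gene, 50 of the 74 genes were at least 1 log2 unit higher in ependymocyte-like than in tanycyte-like cells and 0 were lower by that much, on a scale of log2(CPM + 10). Among all 15325 genes, 7.48% were higher and 3.5% lower by that much. The median difference over the 74 genes was 1.27, from −0.37 to 3.10, against −0.03 over all genes. Of the 60 axonemal genes 44 were higher, with a median of 1.47, and of the 14 Ift genes 6 were higher, with a median of 0.65. In 37 of the 74 genes the difference reached 1 log2 unit under each of the 4 barcode numbers, as it did in 4.27% of all genes. With a pseudocount of 50 CPM in place of 10, 25 of the 74 genes reached it, beside 2.44% of all genes. Against astrocyte-like cells 63 of the 74 genes were higher in ependymocyte-like cells, where 12.5% of all genes were, with a median difference of 2.63.

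Tanycyte-like cells were also set against microglia-like cells, since microglia bear no motile cilia. The axonemal sum of microglia-like cells was the lowest but 1 among the 13 named types, above that of macrophage-like cells at 196 CPM, and the sum of pars tuberalis-like cells was the highest after tanycyte-like cells. Between tanycyte-like and microglia-like cells 54 of the 74 genes were at least 1 log2 unit higher in tanycyte-like cells, 42 axonemal and 12 Ift genes, against 14.9% of all genes. The median difference was 1.66, against 0.17 over all genes, and 0 of the 74 were lower by that much, where 8.46% of all genes were. Of the same 74 genes 14 were at least 1 log2 unit higher in astrocyte-like than in microglia-like cells, 8 axonemal and 6 Ift genes, where 12.6% of all genes were, with a median difference of 0.24. Genes higher at both steps, from microglia-like to tanycyte-like and from tanycyte-like to ependymocyte-like cells, numbered 39, where 2.19% of all genes did so. Another 11 genes passed the second step and not the first (5.29% of all genes), 15 passed the first and not the second (12.7% of all genes), and 9 passed neither (79.8% of all genes). Among the 13 named types 67 of the 74 genes were highest in ependymocyte-like cells, where 12.3% of all genes were. For 58 of these 67 genes tanycyte-like cells came second, an order that 5.17% of all genes had.

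**Figure D2:**
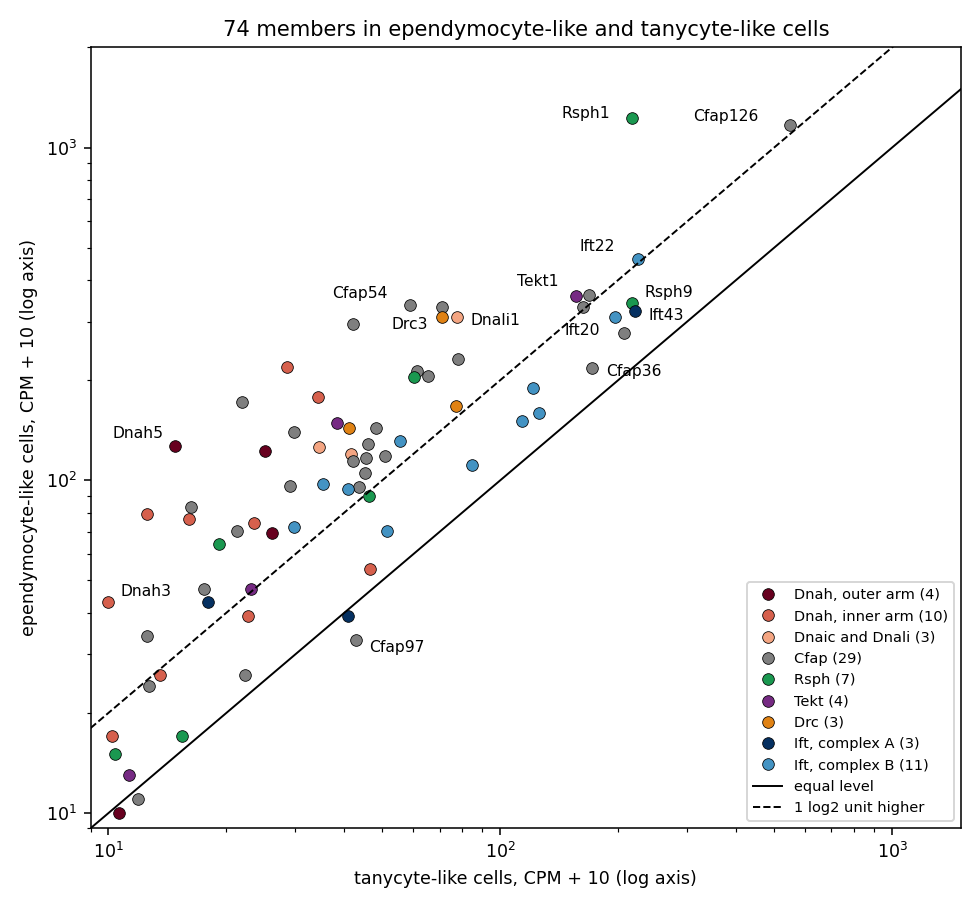
Level of each of the 74 genes (members) in tanycyte-like cells (horizontal axis) and ependymocyte-like cells (vertical axis), both as CPM + 10 on log axes, coloured by family, with a solid line at equal levels and a dashed line 1 log2 unit higher. Of the 74 points 50 lie on or above the dashed line, and Cfap97 lies furthest below the solid one, at a log2 difference of −0.37.

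The dynein heavy chains, the ATP-driven motors of the arms, had the largest summed folds of the families between both cell types. Of the 4 outer arm Dnah genes 3 were at least 1 log2 unit higher in ependymocyte-like cells, and so were 6 of the 10 assigned to the inner arm, and their summed levels differed 7.89-fold and 5.99-fold. Dnah5 (ENSMUSG00000022262, chr15:28203752-28472052, plus strand), an outer arm heavy chain, was at 101, 141, 99.1 and 127 CPM in ependymocyte-like cells under barcode numbers 1 to 4, and at 4.05, 5.74, 5.13 and 4.49 CPM in tanycyte-like cells. The values did not overlap, and the pooled levels of 117 CPM (96.3–139.8) and 4.80 CPM differed 24.3-fold, or by 3.10 on the log2(CPM + 10) scale. Dnah9, the other abundant outer arm chain, was at 113 against 15.03 CPM (log2 2.29), and Dnah11 at 59.3 against 16.1 CPM (log2 1.41). Dnah8, whose product is known from sperm flagella, had 0 UMIs in ependymocyte-like cells, which allows up to 3.01 CPM, and was highest in OPC-like cells at 14.2 CPM.

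Among the inner arm chains, Dnah12 (ENSMUSG00000021879, chr14:26693274-26891703, plus strand) was at 203, 192, 206 and 225 CPM in ependymocyte-like cells and at 23.6, 13.9, 10.3 and 24.2 CPM in tanycyte-like cells under the 4 barcode numbers. Again the values were far apart, 11.2-fold between the pooled levels, and Dnah12 had 0 UMIs in microglia-like cells, which allows up to 2.24 CPM. Dnah6 was at 168 against 24.2 CPM (log2 2.38). Of the 35 UMIs of Dnah3, 33 (94.3%) lay in ependymocyte-like cells, at 24.1, 22.6, 51.4 and 29.6 CPM under the 4 numbers. Dnah3 reached the minimum of 20 UMIs through these cells alone, so its difference follows in part from how the genes were chosen. It had 0 UMIs in tanycyte-like cells, so its level was at least 52.9-fold higher in ependymocyte-like cells when set against 3 counts over the tanycyte-like group. Dnah7a was far less unequal, at 43.4, 28.2, 73.4 and 29.6 CPM in ependymocyte-like cells against 35.1, 33.6, 30.8 and 46.7 CPM in tanycyte-like cells. These values overlapped (log2 0.22), and since Dnah7a, Dnah7b and Dnah7c are near-identical copies the counts of each are uncertain. Dnah14 had 7 UMIs in ependymocyte-like cells and was highest in mature oligodendrocyte-like cells, at 31.6 CPM.

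All 3 genes for the smaller arm subunits were higher in ependymocyte-like cells, with a summed fold of 4.24. Dnali1, a light intermediate chain of the inner arm, was at 309, 339, 257 and 304 CPM in ependymocyte-like cells and at 64.1, 63.1, 69.8 and 74.5 CPM in tanycyte-like cells. The pooled levels of 298 and 67.4 CPM differed by 1.99 log2 units, with no overlap between the barcode numbers. The outer arm intermediate chains Dnaic1 and Dnaic2 were at 109.5 against 31.5 CPM (log2 1.53) and at 116 against 24.4 CPM (log2 1.87). For Dnaic1 astrocyte-like cells came second among the types, at 34.7 CPM.

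Radial spoke genes were unequal in their difference between both cell types. Rsph1 (ENSMUSG00000024033, chr17:31255019-31277383, minus strand), which encodes a spoke head protein, was at 1337, 1232, 1196 and 1152 CPM in ependymocyte-like cells under barcode numbers 1 to 4. In tanycyte-like cells it was at 207, 212, 196 and 207 CPM, and in microglia-like cells at 8.97 CPM. No values overlapped, and the pooled levels differed 5.90-fold (log2 2.50). With each cell thinned to 2000 UMIs, Rsph1 was detected in 90.5% (85.6–94.2%) of ependymocyte-like, 34.4% (31.6–37.3%) of tanycyte-like and 1.94% (0.785–3.97%) of microglia-like cells. Before thinning the shares were 100%, 52.1% and 2.99%, at median depths of 4861, 4152 and 3079.5 UMIs. Rsph4a, another head protein, followed with 195 against 50.3 CPM (log2 1.76). Rsph9, the third head component, was less unequal, at 285, 356, 356 and 325 CPM against 205, 199, 209 and 217 CPM, and differed by 0.65 log2 units without overlap. Over the family 3 of 7 genes passed 1 log2 unit. The near-identical pair Rsph3a and Rsph3b had 7 and 5 UMIs in ependymocyte-like cells, and reads could be split between them.

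Cfap genes were the largest family, and 23 of 29 were higher in ependymocyte-like cells, with a median difference of 1.44 and a summed fold of 2.75. Cfap126 (ENSMUSG00000026649, chr1:171113918-171126967, plus strand), also called Flattop, had the most UMIs of all 74 genes. It was at 1299, 1186, 1130.4 and 1085 CPM in ependymocyte-like cells and at 564, 558, 509 and 517 CPM in tanycyte-like cells. The groups did not overlap, yet the pooled levels of 1159.7 and 540.4 CPM differed only 2.15-fold (log2 1.09), and microglia-like cells had 17.9 CPM. Thinned to 2000 UMIs, Cfap126 was detected in 92.0% (87.4–95.4%) of ependymocyte-like, 63.9% (61.0–66.7%) of tanycyte-like and 3.61% (1.94–6.10%) of microglia-like cells. Unthinned, at the depths given for Rsph1, the shares were 99.0%, 82.0% and 5.97%.

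Cfap54, a central apparatus component, was at 326 against 48.9 CPM (log2 2.51), and Cfap161 at 321 against 61.2 CPM (log2 2.22), both of them named after their values were seen. Other Cfap genes were shared more evenly. Cfap20, a protein of the doublet microtubules, was at 328, 299, 407 and 346 CPM in ependymocyte-like cells against 158.7 CPM pooled in tanycyte-like cells (log2 1.10), and it reached 1 log2 unit under 2 of the 4 barcode numbers. Cfap298, which takes part in dynein arm assembly, was at 266 against 196 CPM (log2 0.42). Cfap36 was at 212, 192, 220.2 and 201 CPM against 176, 169.7, 125 and 167 CPM (log2 0.34), with no overlap but with neighbouring values. Cfap97 and the barely detected Cfap73 were the Cfap genes with a negative difference, Cfap97 at 23.1 against 32.8 CPM (log2 −0.37), and was highest in neuron-like cells at 39.1 CPM.

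Of the tektins 3 of 4 were higher in ependymocyte-like cells. Tekt1 (ENSMUSG00000020799, chr11:72344722-72362442, minus strand) was at 381, 350.3, 334 and 337 CPM in ependymocyte-like cells and at 155, 140.2, 139 and 146 CPM in tanycyte-like cells. No values overlapped (2.39-fold between the pooled 348 and 146 CPM), and microglia-like cells had 1.49 CPM. Tekt4 was at 139 against 28.4 CPM (log2 1.95). Tekt2 rested on 37 UMIs in ependymocyte-like cells and varied from 17.7 to 53.1 CPM between barcode numbers, against 13.2 CPM in tanycyte-like cells (log2 1.03). Among the 13 named types Tekt5 was highest in neuron-like cells, at 10.9 CPM, and it had 3 UMIs in ependymocyte-like cells. The unnamed Gfap-led cluster also had 10.9 CPM of Tekt5. All 3 Drc genes, whose products form the links between neighbouring doublets, were higher in ependymocyte-like cells. Drc3 was at 279.98, 299, 341 and 275 CPM against 62.8, 64.8, 50.3 and 63.7 CPM (log2 2.12), 2 well separated groups. Drc7 was at 134 against 31.1 CPM (log2 1.81), and Drc1 at 157 against 67.03 CPM (log2 1.11), reaching 1 log2 unit under 2 of the 4 barcode numbers.

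The transport genes were less restricted. Complex A, which serves return transport from the tip, was represented by 3 genes with 1 past 1 log2 unit, and complex B, which serves transport towards the tip, by 11 with 5 past it. Ift22 (ENSMUSG00000007987, chr5:136908150-136915404, plus strand), a small GTPase-like subunit of complex B, was at 459, 475, 389 and 488 CPM in ependymocyte-like cells. In tanycyte-like cells it was at 207, 216, 217 and 223 CPM, in microglia-like cells at 30.6 CPM. The 2 groups did not overlap and differed by 1.04 log2 units, with 3 of the 4 barcode numbers past 1. Ift20, a complex B protein that is also found at the Golgi, was at 285, 333, 286 and 298 CPM against 184, 195, 174 and 189 CPM (log2 0.65), and microglia-like cells still had 73.97 CPM. Ift27, another small GTPase-like subunit, was at 179 against 111 CPM (log2 0.64), and at 131 CPM in astrocyte-like cells, above the tanycyte-like level.

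In complex A, Ift43 was at 289.6, 288, 323 and 334 CPM in ependymocyte-like cells against 223, 224, 184 and 204 CPM in tanycyte-like cells (log2 0.55), without overlap. Ift43 was at 7.47 CPM in microglia-like cells. Ift122 was nearly equal in both, at 29.1 (19.5–41.9) and 30.9 CPM (log2 −0.06), and was highest in pars tuberalis-like cells, at 52.0 CPM. Ift140 was at 33.2 against 7.93 CPM (log2 1.27) on 33 and 38 UMIs. The plot of differences by barcode number shows Rsph1, Dnah5 and Dnah12 above 2 log2 units under each number, and Dnah7a, Ift122 and Tekt2 with differences that varied most between numbers.

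**Figure D3:**
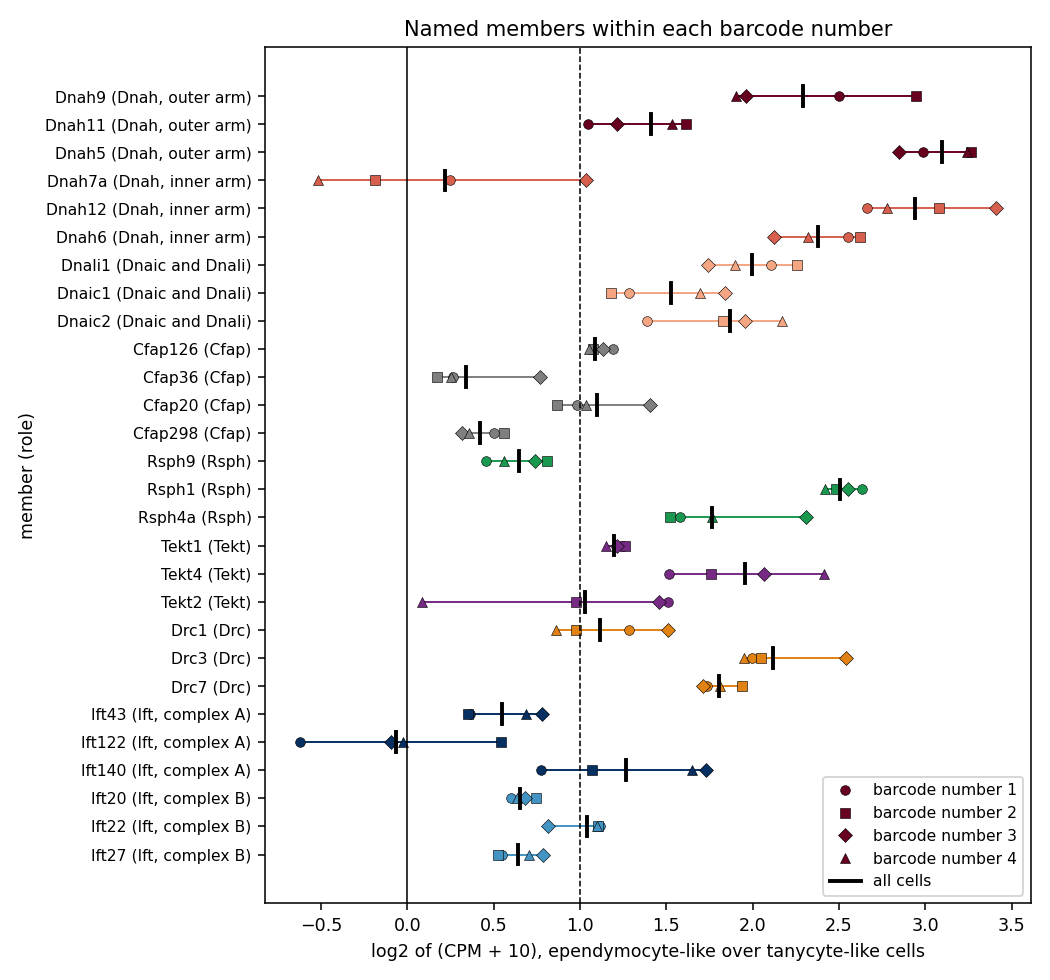
Difference between ependymocyte-like and tanycyte-like cells in log2(CPM + 10) for the 28 named genes, with 1 symbol for each barcode number, a black bar for all cells, a solid line at 0 and a dashed line at 1. Dnah5 and Rsph1 lie above 2 under each barcode number, Cfap126 and Tekt1 just above 1, and Ift20, Ift43 and Cfap36 between 0 and 1.

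The 2 tanycyte-like clusters differed slightly in their axonemal sums. The cluster of 596 cells, led by 6330403K07Rik, summed to 3281 CPM (3205–3357) of axonemal transcripts, and the cluster of 529 cells, led by Mia and with Frzb and Col25a1 among its leading genes, to 2850.3 CPM (2786–2916). Under barcode numbers 1 to 4 the sums were 3346, 3332, 3048 and 3350.0 CPM in the first and 2935, 2917, 2709 and 2765 CPM in the second, without overlap. Between them 0 of the 74 genes differed by 1 log2 unit in either direction, a share near the 1.63% of all genes that did, and the differences ran from −0.43 for Cfap20 to 0.69 for Dnah5.

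A Gfap-led cluster of 310 cells stayed unnamed because its scores for ependymocyte and for tanycyte markers were both under 0.3. At Leiden resolution 2 a Gfap-led cluster of 111 cells took the ependymocyte name, with a score of 0.376. The axonemal sum of the 310 cells was 3638 CPM (3538–3741), with 3672, 3537, 3829.9 and 3544 CPM under barcode numbers 1 to 4, which lay above the tanycyte-like values and far below the ependymocyte-like ones. Against tanycyte-like cells 1 of the 74 genes was at least 1 log2 unit higher there, Cfap100 (log2 1.04), beside 1.8% of all genes. Ependymocyte-like cells exceeded the Gfap-led cluster by 1 log2 unit in 41 of the 74 genes, where 5.64% of all genes did so, with a median of 1.17. In a Fxyd1-led unnamed cluster of 201 cells the axonemal sum was 2566 CPM (2453–2683) and the Ift sum 1204 CPM, close to the tanycyte-like 1218 CPM. Both of these clusters expressed Rax, at 214 and 278 CPM. The heat map of all 74 genes shows these cells as a second tier beside tanycyte-like cells.

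**Figure D4:**
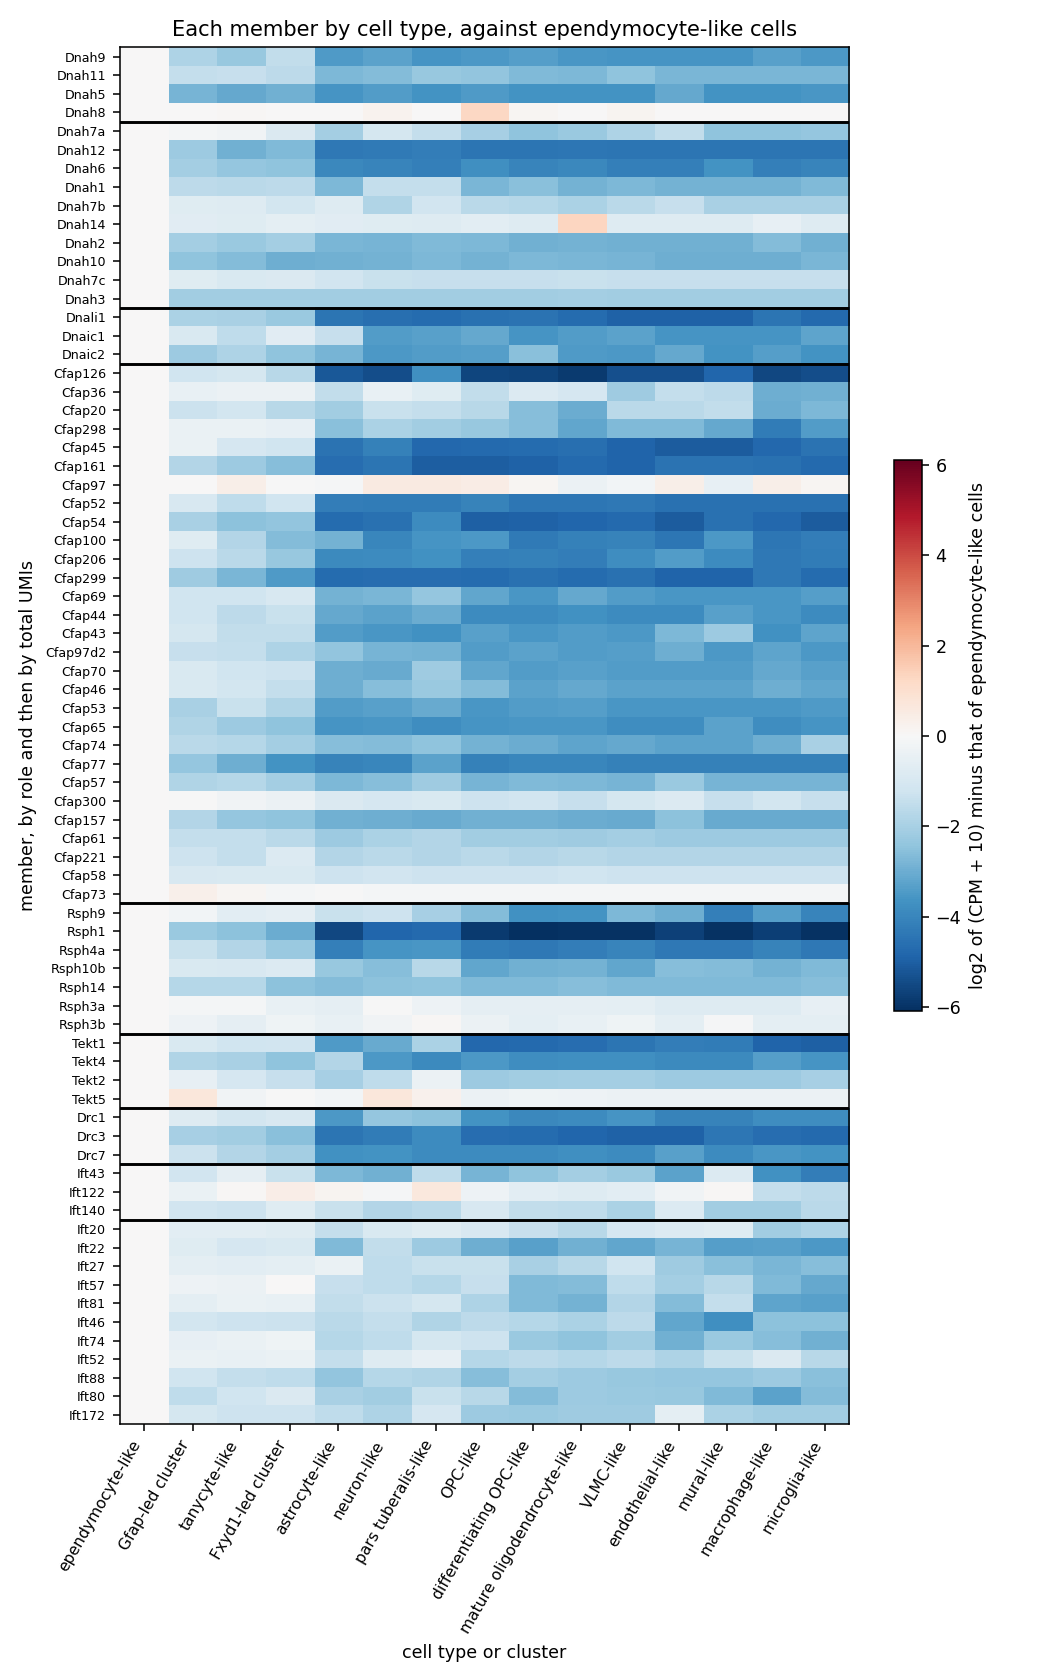
Heat map of the 74 genes (rows, by family and then by total UMIs) in the 13 named cell types and the Gfap-led and Fxyd1-led clusters (columns), as log2(CPM + 10) minus the ependymocyte-like value, blue where lower and red where higher. Most axonemal rows are pale blue in the Gfap-led, tanycyte-like and Fxyd1-led columns and dark blue to their right, and most Ift rows are paler there.

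The axonemal levels were also set beside those of the ependymocyte markers. In tanycyte-like cells the axonemal sum stood at 31.2% of the ependymocyte-like level and the Ift sum at 57.6%, with Cfap126 at 46.6%, Tekt1 at 41.9% and Rsph1 at 17.0%. The 8 ependymocyte markers used for naming spread widely, with Tmem212 at 0.783%, Cd24a at 1.00%, Tm4sf1 at 1.18%, Hdc at 2.26%, Rarres2 at 9.45%, Calml4 at 18.6%, Elof1 at 22.2% and Mia at 64.0% of the ependymocyte-like level. A separate list of 7 ciliary genes outside the 74, which was not used for naming, spread as widely. Of these Ccdc153 stood at 0.537%, Foxj1 at 16.3%, Dynlrb2 at 27.3%, Mlf1 at 30.1%, Fam183b at 32.2%, Enkur at 39.8% and Pifo at 45.6% of the ependymocyte-like level, so that 5 of the 7 lay between 27.3% and 45.6%. The part of ependymocyte RNA free in the suspension in the tanycyte-like values was not tested. In microglia-like cells the axonemal sum stood at 2.07% of the ependymocyte-like level. Over the 65 genes with at least 20 UMIs in ependymocyte-like cells, the tanycyte-like level was a median of 28.9% of the ependymocyte-like one, from 0 for Dnah3 to 142% for Cfap97.

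Leaving out tanycyte-like cells with any UMI of Ccdc153, Tmem212, Tm4sf1 or Cd24a, a split chosen after the data were seen, removed 169 of 1125 cells. Ccdc153 is itself a ciliary gene, so the split was not independent of the axonemal programme. The remaining 956 cells had 2940.1 CPM (2887–2994) of axonemal transcripts, and the 169 had 3612 CPM (3478–3749). In the Gfap-led cluster 219 cells (70.6%) had such a UMI and 3953 CPM, and the other 91 cells had 2843 CPM (2678–3015). Set against ependymocyte-like cells, the axonemal sum of the remaining tanycyte-like cells was lower by 1.73 log2 units.

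Single cells showed the same order. After thinning to 2000 UMIs, an ependymocyte-like cell had a median of 14 of the 60 axonemal genes with a UMI, from 7 to 22 over 201 cells. Tanycyte-like cells had a median of 5, from 0 to 15 over 1105 cells, cells of the Gfap-led cluster 6, and microglia-like cells 0. Of ependymocyte-like cells 188 of 201 (93.5%) had 10 or more of these genes, a number set at the 10th percentile of the same cells. Among tanycyte-like cells 71 of 1105 (6.43%, 5.05–8.04%) reached 10, in the Gfap-led cluster 39 of 307 (12.7%, 9.19–16.9%), and in the Fxyd1-led cluster 4 of 196 (2.04%). No cell reached it in the other 11 named types, microglia-like cells with 0 of 360 included, which allows a share of up to 1.02%. For the 14 Ift genes the thinned medians were 3, 2 and 0 in ependymocyte-like, tanycyte-like and microglia-like cells. Thinning left out 20 tanycyte-like and 42 microglia-like cells with fewer UMIs, and unthinned the axonemal medians were 24, 9 and 0.

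**Figure D5:**
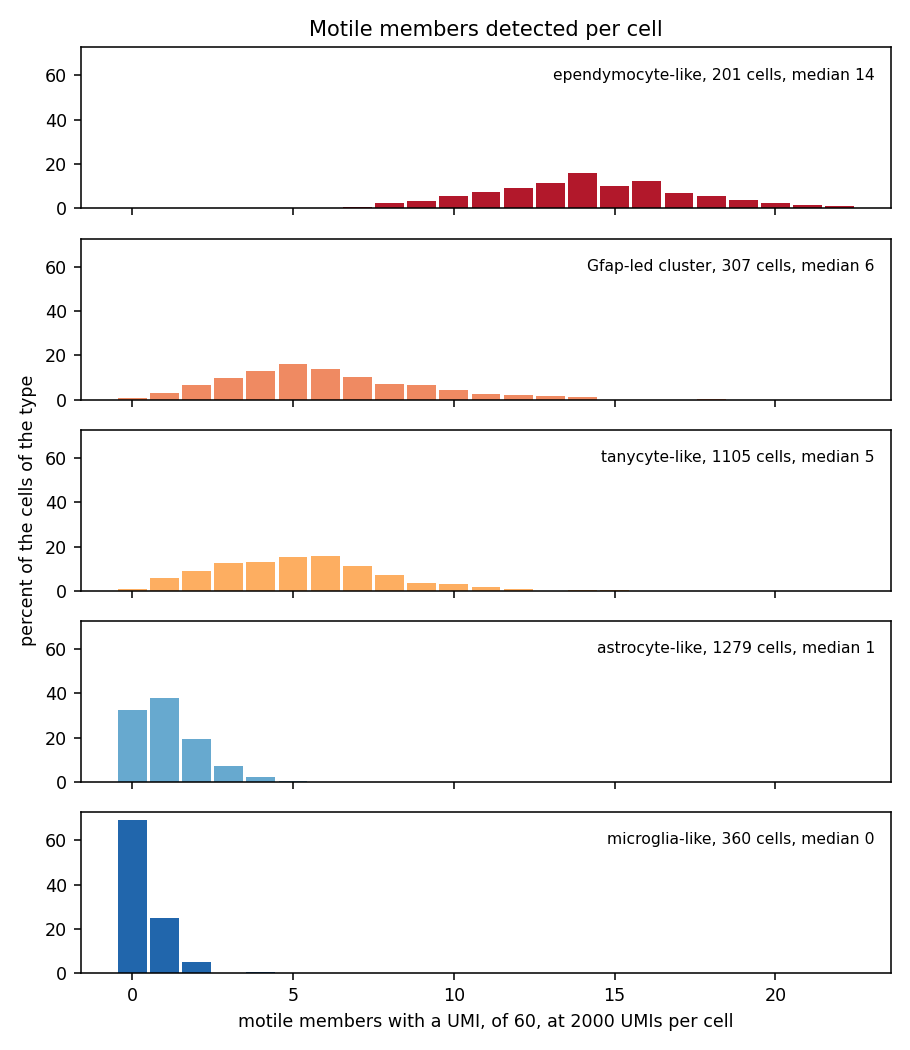
Number of the 60 axonemal genes (motile members) with a UMI per cell after thinning to 2000 UMIs (horizontal axis), as the percent of cells of each of 5 populations (vertical axis). The median was 14 in ependymocyte-like cells, 6 in the Gfap-led cluster, 5 in tanycyte-like, 1 in astrocyte-like and 0 in microglia-like cells, and ependymocyte-like and tanycyte-like cells overlapped from 7 to 15.

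The wider ciliary machinery was read from 11 lists of 138 genes, of which 129 reached 20 UMIs, and 0 of the 129 were 1 log2 unit lower in ependymocyte-like than in tanycyte-like cells, where 3.5% of all genes were. The counts of higher genes in these lists stand beside the 7.48% of all genes that passed 1 log2 unit, and beside 44 of the 60 axonemal genes. Of central pair genes 7 of 8 were higher in ependymocyte-like cells, with a median of 2.29 and summed levels of 1541, 316 and 13.4 CPM in ependymocyte-like, tanycyte-like and microglia-like cells. Spag6l, a central apparatus protein, was at 355 against 48.4 CPM, while the kinesin Kif9 was at 146 against 86.7 CPM (log2 0.69). Of the genes for nexin-dynein links and the ruler proteins that set the repeat of the axoneme 7 of 9 were higher, among them Ccdc39 at 144 against 66.2 CPM. Gas8, a nexin-dynein subunit, was at 56.3 and 57.0 CPM. Other axonemal genes gave 13 of 20, with Tppp3, a tubulin-binding protein, at 1779.8 against 342 CPM, and genes for dynein assembly and docking 11 of 17, with Pih1d2 at 204 against 72.7 CPM. Of the dynein light chains, several of which also serve cytoplasmic dynein, 3 of 8 were higher.

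The remaining lists cover primary cilia, transport, basal bodies and regulators. Of the BBSome, a coat complex that moves membrane proteins in cilia, 0 of 9 genes were higher, with summed levels of 558 and 433 CPM in ependymocyte-like and tanycyte-like cells. Of the transition zone, the gate at the cilium base, 1 of 13 was higher, with sums of 1159.8 (1094–1229) and 839.8 CPM (814–866), and of primary cilium signalling 1 of 9, Arl13b, at 63.3 against 21.9 CPM. Ptch1, the Hedgehog receptor, was at 43.2 and 39.0 CPM and was highest in astrocyte-like cells, at 347 CPM. The counts of these 3 lists lie near the share over all genes. Motors and cargo adaptors of transport gave 5 of 17, with sums of 1522.5 and 828 CPM, and basal body genes 2 of 10, with sums of 393 and 259 CPM. Of the regulators of multiciliation 4 of 9 were higher, with sums of 726 and 231 CPM, Foxj1 (log2 2.43) and Rfx4 (79.4 against 13.99 CPM, log2 1.90) among them. Rfx4 was highest in astrocyte-like cells, at 144 CPM, and E2f4 was at 33.2 and 36.1 CPM. The early multiciliation regulators Mcidas, Gmnc, Ccno and Cdc20b had 5, 11, 17 and 1 UMIs over all cells and were left out.

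Other genes followed the axonemal sum closely over the 25 clusters. By Pearson correlation of log2(CPM + 10), the closest outside the 74 were 1700088E04Rik (0.98), Tmem107, Ubxn10, Riiad1 and Nme5 (0.97 each), and Ccdc39, Cetn4, Lrriq1, Ccdc30 and Ccdc65 (0.96 each). These are descriptions over clusters of 1 pooled sample that share libraries and depth. Riiad1 was at 1251 CPM in ependymocyte-like, 360.2 CPM in tanycyte-like and 13.4 CPM in microglia-like cells, and Cetn4, a centrin, at 442, 93.3 and 6.72 CPM.

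Since most of the 74 genes were highest in ependymocyte-like cells, the 250 bases before each gene's most upstream RefSeq start were searched on both strands. The strings sought were GTTGCC and GTTGCCA, each only a part of the X-box bound by RFX factors, and TGTTTAC, a forkhead core. GTTGCCA contains GTTGCC. Matched by symbol, 60 of the 74 genes had a promoter in the table, and 20 of them (33.3%) held GTTGCC, 17 of 49 axonemal and 3 of 11 Ift genes, where 10.5% of 27025 genes did. GTTGCCA was in 11 of 60 (18.3%), where 3.70% of all genes held it, and TGTTTAC in 2 of 60 (3.33%), Cfap20 and Cfap43, where 3.06% did. The 27025 genes are all those with a promoter, whatever their UMI count, whereas the 74 genes had to reach 20 UMIs. A match is a string of letters and no evidence of binding. The stretches printed here are the 7 from named genes with GTTGCC clear of annotated exons, and are shown as examples of where the match lies in genes of the doublet, the links, the arms and complex A. They are RefSeq sequences of build GRCm38.p6, read 5′ to 3′ on the strand of the gene, with each match or its reverse complement in capitals. Cfap20 lies at chr8:95434932-95434991 (minus), Tekt1 at chr11:72361883-72361942 (minus), Drc1 at chr5:30281328-30281387 (plus), Dnah7a at chr1:53706952-53707011 (minus), Dnaic2 at chr11:114727348-114727407 (plus), Tekt2 at chr4:126325689-126325748 (minus) and Ift140 at chr17:25015950-25016009 (plus). Counted from the start, the matches begin in this order at −95, −15, −12, −200, −26, −22 and −109, with a second one at −35 for Tekt1 and, outside the stretch printed, at −96 for Tekt2.
Cfap20: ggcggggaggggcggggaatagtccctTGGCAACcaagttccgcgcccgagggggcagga
Tekt1: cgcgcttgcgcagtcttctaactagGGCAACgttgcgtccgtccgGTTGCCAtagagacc
Drc1: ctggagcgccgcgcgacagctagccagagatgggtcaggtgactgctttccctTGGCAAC
Dnah7a: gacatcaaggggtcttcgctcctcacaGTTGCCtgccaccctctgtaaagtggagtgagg
Dnaic2: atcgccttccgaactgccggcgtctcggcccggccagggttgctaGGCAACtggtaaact
Tekt2: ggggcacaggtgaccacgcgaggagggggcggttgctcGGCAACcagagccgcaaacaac
Ift140: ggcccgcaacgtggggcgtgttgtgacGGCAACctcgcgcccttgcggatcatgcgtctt
The Tekt1 stretch lies inside the longer GENCODE span of the gene, since RefSeq starts the gene further downstream. Of these 7 genes, all but Dnah7a (log2 0.22) were at least 1 log2 unit higher in ependymocyte-like than in tanycyte-like cells. In all, 9 named genes held GTTGCC, and those without a printed stretch, Cfap298 (log2 0.42) and Ift27 (log2 0.64), did not reach 1 log2 unit. Of the 74 genes 50 reached it, as did 7.48% of all genes.

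For 13 of the 74 genes another gene on the same strand overlaps, Cfap299, Rsph10b, Drc1 and Cfap43 among them, and reads of the 2 may not be separated, which leaves their counts uncertain. Ependymocyte-like cells held more than 50% of all UMIs of 8 genes, Dnah3, Dnah5, Dnah10, Cfap77, Dnah12, Cfap157, Dnah2 and Cfap299, from 94.3% for Dnah3 to 50.3% for Cfap299, as they did for 0.953% of all genes. Altogether 24 genes, all axonemal, had 0 UMIs in microglia-like cells, as 13% of all genes did, whereas each of the 14 Ift genes was detected there.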

How the data were processed

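Per the labels and methods, the authors processed 10x 3′ libraries with Cell Ranger 2.0 against mm10 and deposited 1 table of raw UMI counts (27998 genes, 5982 cells, the number of cells the study states). The annotation release and the calling of cells are not given in the sources used here. The 32 sample records are 8 for each of 4 libraries, the table pools all of them, and 0 columns were left unused.

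Gene symbols came from the GENCODE vM21 annotation of GRCm38 (27722 genes matched). Counts were scaled to CPM and clustered with igraph 0.11.9, anndata 0.12.19, scanpy 1.11.5 and scikit-learn 1.9.0 (2000 variable genes, 30 components, 15 neighbours, Leiden resolution 1), with 218 cilium genes barred. A cluster took a name if its marker score was at least 0.3 and 1.5 times the next and at least 3 markers were enriched 4-fold, which named 21 of 25 clusters as 13 types. Clusters and names were rebuilt here and may differ from the study's. Scrublet marked 52 cells (0.870%), 1 of them ependymocyte-like and 3 tanycyte-like, as doublets, which were kept. Another 3 cells with over 10% haemoglobin UMIs were set apart.

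UMIs were summed per type and compared as log2(CPM + 10), with 1 log2 unit as the threshold and no test: the barcode numbers are not tied to the study's samples, and the table was taken as 1 sample, with the differences within each number given as values. Poisson intervals of levels and Clopper-Pearson intervals of shares (scipy 1.17.1) are exact. A count of 0 was read against a limit of 3 counts. Cells were thinned to 2000 UMIs for detection. The scripts were tested on simulated data with known fold changes. Figures were drawn with matplotlib 3.10.9.

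Genes and lists were chosen with earlier results of these data known. Named genes were the 3 with the most UMIs in each family, and the 5 with the most UMIs below the threshold and the 5 highest in tanycyte-like cells. In each wider list the 3 with the most UMIs were taken, and the 10 genes most correlated with the axonemal sum. Other genes, among them Dnah3, Dnah8, Dnah14, Cfap54, Cfap97, Cfap100, Cfap161 and Tekt5, were named after their values were seen. Alternatives were other clusterings, filters on cells and doublets, pseudocounts of 1 and 50 CPM, thinning, other UMI limits, and leaving out each barcode number.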

Additional observations from a re-analysis of the deposited data

How the results depend on the processing

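The count of 50 genes higher in ependymocyte-like than in tanycyte-like cells became 25 with a pseudocount of 50 CPM, and lay between 39 and 56 under the other settings tried. At Leiden resolution 2 ependymocyte-like cells numbered 312 instead of 201, the log2 difference of the axonemal sum was 1.39 instead of 1.68, that of the Ift sum 0.61 instead of 0.80, and the share of axonemal UMIs in ependymocyte-like cells 27.6% instead of 22.9%. K-means with 9 clusters gave 288 cells and a share of 27.6%, and named no tanycyte-like cluster, so it gave no difference. With cells thinned to 1000 UMIs the Ift difference was 0.69 and the share 21.8%. Without tanycyte-like cells that had a UMI of Ccdc153, Tmem212, Tm4sf1 or Cd24a, a setting added after the data were seen, the axonemal difference was 1.73. Unthinned, the median number of axonemal genes per cell was 24 in ependymocyte-like and 9 in tanycyte-like cells instead of 14 and 5. Leaving out each barcode number in turn gave 48 to 51 genes, axonemal differences of 1.65 to 1.70, Ift differences of 0.78 to 0.82, shares of 21.2% to 24.6% and 135 to 163 cells. Of 364 values of the 28 named genes under these settings, 345 kept their side of 1 log2 unit, 19 fell below it, 7 of them with the pseudocount of 50 CPM and 6 at resolution 2, and 0 of those past it changed sign. The causes were not tested. Taken within each barcode number, the axonemal difference was 1.69, 1.67, 1.78 and 1.63 and the Ift difference 0.71, 0.81, 0.85 and 0.80 under numbers 1 to 4. Between fasted and refed samples no paired analysis was possible because no label ties a barcode number to a condition or replicate.

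The data are 1 pooled table of cells from pooled mice, so that the spread between animals is unknown. Dnah genes with under 200 UMIs, Tekt2 and Ift140 rest on few molecules.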
